A study of Rattus norvegicus with 6 samples.

Results

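Oxidative phosphorylation subunits were followed in the livers of rats with CCl4-induced fibrosis and of control rats, gene by gene, complex by complex and for each of the genomes that encode them. The members were the protein-coding genes of the deposited expression table whose symbols begin with Ndufa, Ndufb, Ndufc, Ndufs, Ndufv, Sdha, Sdhb, Sdhc, Sdhd, Uqcr, Atp5, Mt-nd, Mt-co, Mt-cyb or Mt-atp, or with Cox and a digit between 4 and 8. These prefixes took 101 of the 19616 genes in the table and of its 16957 protein-coding genes. Nuclear chromosomes carried 89 of the members and the mitochondrial chromosome 12. By their known roles 87 were subunits, whereas 14 were assembly or other factors that share a prefix with the subunits. The members carried 99 different symbols, because Cox6b1 and Atp5f1 were each listed 2 times, under different identifiers.

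In the inner mitochondrial membrane, complex I (NADH dehydrogenase) and complex II (succinate dehydrogenase) pass electrons to ubiquinone, complex III passes them to cytochrome c and complex IV to oxygen, and complex V, the ATP synthase, makes ATP from the proton gradient that complexes I, III and IV build up. Mitochondrial DNA encodes core subunits of every complex except complex II, and nuclear genes encode all other subunits and the factors that assemble them. Hepatocytes are rich in mitochondria, on which urea synthesis, gluconeogenesis and the oxidation of fatty acids depend.

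Liver RNA of 6 male SD rats was sequenced after removal of ribosomal RNA, with a library for each rat. Fibrosis in the FL group (FL2, FL5 and FL12) had been brought about over 5 weeks by CCl4, a solvent that injures hepatocytes. Doses at 2 mL/kg, in which CCl4 and olive oil made up equal parts, went into the abdomen 2 times a week. Olive oil alone, in matching volume, was the treatment of the CL group (CL5, CL6 and CL7). The age of the rats is not given in the sources used here. Expression was given as FPKM, in which the fragments assigned to a gene are divided by the length of the gene and by the size of the library. Summed over all genes, FPKM reached 309424.9, 340467.0 and 315258.7 in the CL rats and 309226.4, 272349.9 and 272110.5 in the FL rats. Here and below, values of single rats are in the order CL5, CL6, CL7 and FL2, FL5, FL12. The number of reads behind a value was not known, so the error given is that between rats.

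Setting the FL against the CL group asks which mRNAs of the respiratory chain and ATP synthase differ in the fibrotic liver. A test was run for 96 of the 101 members, 84 nuclear and 12 mitochondrial, whose mean over the 6 rats reached 0.1 FPKM, within a limma fit over 14864 genes. Sdhaf1 and Cox6b2 rose at an adjusted p under 0.05, which is 2 of 96 members, where 16.9% of all genes tested rose. By limma 0 members fell, beside 1.94% of all genes, and at an unadjusted p under 0.05 7 members were higher and 0 lower, against 4675 (31.5%) and 601 (4.04%) of all genes. With the further limit of a 2-fold change, 1 member rose (Cox6b2) and 0 fell, where 9.29% of all genes rose and 0.935% fell. Every FL rat lay above every CL rat in 12 members (12.5%, against 35.7% of all genes) and below in 2 (2.08%, against 4.78%). The 12 were Mt-nd6, Mt-co2, Ndufs4, Ndufs8, Cox6b2, Atp5b, Atp5g2, Atp5sl, Cox7a2l, Ndufaf3, Sdhaf1 and Sdhaf2, and the 2 were Ndufs7 and Ndufa4. The number of members past the adjusted p moved to 0 with median scaling or quantile normalization of the rats, and to 9 with equal sums of FPKM, while the share of all genes that passed as higher moved to 8.75%, 5.23% and 26.5%. It was 0 without CL5, CL7 or FL5, 1 without CL6 (Sdhaf1) and 3 without FL2 (Sdhaf1, Cox6b2 and Ndufaf3). Without FL12 neither Sdhaf1 (adjusted p = 0.0628, range 0.00599 to 0.096) nor Cox6b2 (adjusted p = 0.128, range 0.00467 to 0.171) passed. The 1 member past the limits there was Cox6a2, listed at 0 in every CL rat and in FL12. With rats left out singly, Cox6b2 passed both limits without FL2 and was outside the adjusted p limit without each of the other rats.

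Log2 differences of the members, FL minus CL on the scale of log2(FPKM + 0.1), were small beside those of other genes. They lay within 0.5 of 0 in 89 of 96 members (92.7%), in 60.9% of all genes tested and in 78.4% of the 3036 genes that averaged 10 FPKM or more. The 95% confidence interval of the difference stayed within a 2-fold change in either direction in 83 members (86.5%). By genome these were 77 of 84 nuclear (91.7%) and 6 of 12 mitochondrial members (50%), with 5 of 7 in complex I and 0 of 3 in complex IV. The interval was as narrow for 54.3% of all genes and 81.8% of genes of that higher level. By limma without trend the counts by genome were 77 and 6, with 4 in mitochondrial complex I and 1 in mitochondrial complex IV, where the standard error of Mt-co1 was 0.17 in place of 0.64. Positive differences made up 77.9% of all genes, and 57.9, 45.5, 87.1 and 87.8% with median scaling, quantile normalization, equal sums and equal sums over nuclear genes. In bulk liver, fewer cells of a type and less RNA per cell cannot be told apart, and this holds for every level given here.

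Compared by genome, the median log2 difference was 0.066 over the 84 nuclear members and 0.27 over the 12 mitochondrial members, against 0.29 over all genes tested. Over genes that averaged 10 FPKM or more the median was 0.12. Of the nuclear members 54 had positive and 30 negative differences, with a median of -0.16 with median scaling, -0.10 with quantile normalization, 0.24 with equal sums and 0.27 with equal sums over nuclear genes, so that its sign turned with the scaling. All 12 mitochondrial differences were positive, against 7 of 12 with median scaling and all 12 under the other scalings, with medians of 0.041 with median scaling, 0.51 with quantile normalization, 0.44 with equal sums and 0.47 with equal sums over nuclear genes. The median of all genes moved to 0.079 with median scaling, -0.045 with quantile normalization, 0.46 with equal sums and 0.48 with equal sums over nuclear genes. Relative to all genes the nuclear median was -0.22 without further scaling and -0.24, -0.055, -0.21 and -0.21 under these scalings in turn. The mitochondrial median relative to all genes was -0.023, -0.037, 0.55, -0.011 and -0.0089 in the same order. Leaving out CL5 brought the mitochondrial median to -0.0016, and leaving out CL7 brought the nuclear median to -0.017.

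The same medians were read in each rat, as deviations from the CL mean on the log2 scale. The nuclear members lay at 0.069, 0.062 and -0.14 in the CL rats and 0.11, 0.078 and -0.0019 in the FL rats. CL7 was lowest, and the ranges of the groups overlapped. The mitochondrial members lay at -0.48, 0.18 and 0.31 in the CL rats and 0.47, 0.26 and 0.048 in the FL rats. CL5 was far below the other rats, CL6 and CL7 lay among the FL rats, and the pooled standard deviation over rats was 0.335. The assembly and other factors lay at -0.031, 0.059 and -0.036 in the CL rats and 0.21, 0.29 and 0.32 in the FL rats, where every FL rat was above every CL rat. Their median difference of 0.37 turned to -0.020 with quantile normalization and was 0.15 with median scaling, 0.54 with equal sums and 0.57 with equal sums over nuclear genes. All genes tested gave 0.0012, 0.048 and -0.047 in the CL rats and 0.20, 0.33 and 0.35 in the FL rats, again with the FL rats above.

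**Figure D1:**
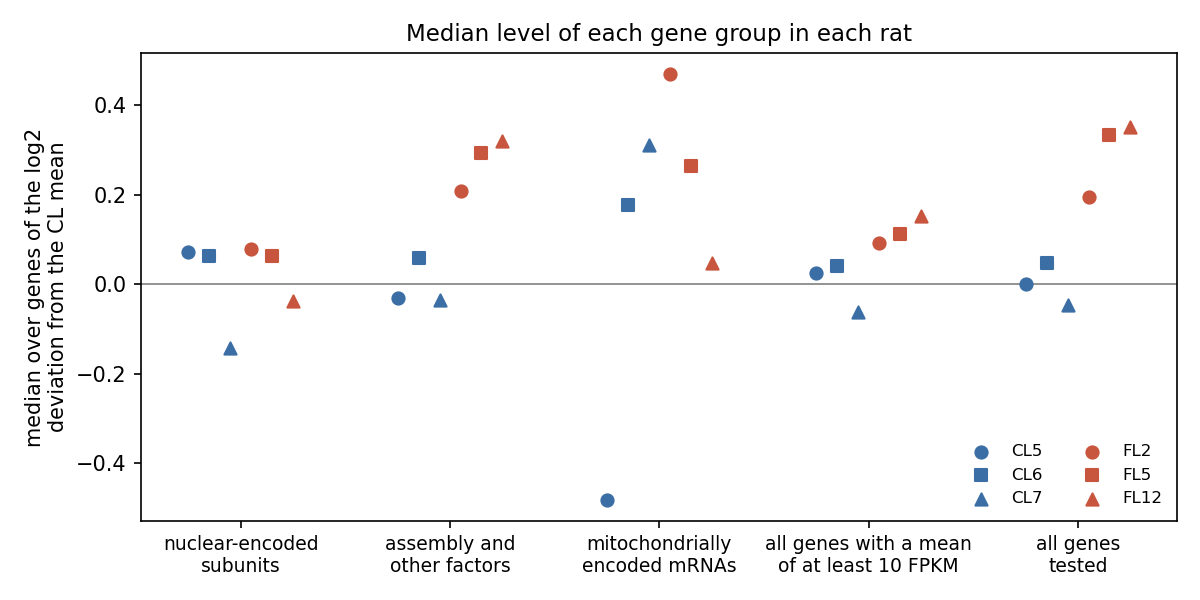
Median over genes of each rat's log2 deviation from the CL mean (vertical axis, log2 of FPKM + 0.1) for nuclear-encoded subunits, assembly and other factors, mitochondrially encoded mRNAs, genes that averaged 10 FPKM or more and all genes tested, with a point for each CL rat (blue) and FL rat (red). The points of the groups overlap for both kinds of subunit, CL5 is lowest for the mitochondrial mRNAs, and the median difference of the nuclear-encoded subunits (0.038) turns negative with median scaling (-0.19) and quantile normalization (-0.10), that of the factors with quantile normalization (-0.020).

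Summed levels put the mitochondrial mRNAs several times above the nuclear ones. The 12 mitochondrial members summed to 13182, 18820.3 and 18809 FPKM in the CL rats and 20213, 19605 and 17146 FPKM in the FL rats. The 89 nuclear members summed to 3093, 3052 and 2587 FPKM in the CL rats and 3101, 3045 and 2852 FPKM in the FL rats. The groups overlapped in both sums, with CL5 lowest for the mitochondrial and CL7 lowest for the nuclear members. The ratio of the mitochondrial to the nuclear sum was 4.26, 6.17 and 7.27 in the CL rats and 6.52, 6.44 and 6.01 in the FL rats, or 5.90 ± 1.52 and 6.32 ± 0.272 as mean and SD (n = 3). All FL ratios lay between those of CL5 and CL7, and the SD of the CL group was the larger. Mt-co1 alone made up, in percent of the mitochondrial sum, 69.0, 67.6 and 64.3 in the CL rats and 59.0, 65.2 and 65.5 in the FL rats. Without Mt-co1 the ratio became 1.32, 1.99975 and 2.60 in the CL rats and 2.67, 2.24 and 2.08 in the FL rats, again with both groups overlapping.

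As a share of all FPKM the mitochondrial members took 4.26, 5.53 and 5.97% in the CL rats and 6.54, 7.20 and 6.30% in the FL rats, where every FL rat lay above every CL rat. The nuclear members took 0.999661, 0.896 and 0.820% in the CL rats and 1.00292, 1.12 and 1.05% in the FL rats. Here FL2, FL5 and FL12 also lay above the CL rats, CL5 and FL2 differing by little. Shares depend on what else a library holds, and the major urinary protein genes (Mup symbols with LOC100912565 and LOC259244) made up, in percent of all FPKM, 9.69, 16.5 and 13.4 in the CL rats and 0.0208, 0.0890 and 0.0143 in the FL rats. Their part in the shares and in the scalings by sums was not tested.

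Split by complex, the summed nuclear subunits overlapped between the groups. Complex I summed to 677, 662 and 605 FPKM in the CL rats and 688, 672 and 620.2 FPKM in the FL rats, complex II to 240.2, 232 and 203 FPKM in the CL rats and 215, 225 and 187 FPKM in the FL rats and complex III to 258, 263 and 224 FPKM in the CL rats and 241, 251 and 236 FPKM in the FL rats. Complex IV summed to 876, 875 and 733 FPKM in the CL rats and 875, 842 and 774 FPKM in the FL rats and complex V to 959.7, 939.6 and 745 FPKM in the CL rats and 981, 961 and 925 FPKM in the FL rats. In FPKM without further scaling the overlap held for all complexes, and CL7 was the lowest CL rat in each. As shares of all FPKM the sums of single complexes were not compared. Median log2 differences were 0.049 for complex I (31 genes), -0.11 for complex II (4), 0.019 for complex III (7), 0.019 for complex IV (14) and 0.074 for complex V (14). With median scaling all of these were negative, between -0.33 and -0.15, and with equal sums all were positive, between 0.071 and 0.25. The mitochondrial subunits of complexes I, IV and V had medians of 0.22 (7 genes), 0.45 (3) and 0.28 (2), and that of complex I turned to -0.00041 with median scaling.

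**Figure D2:**
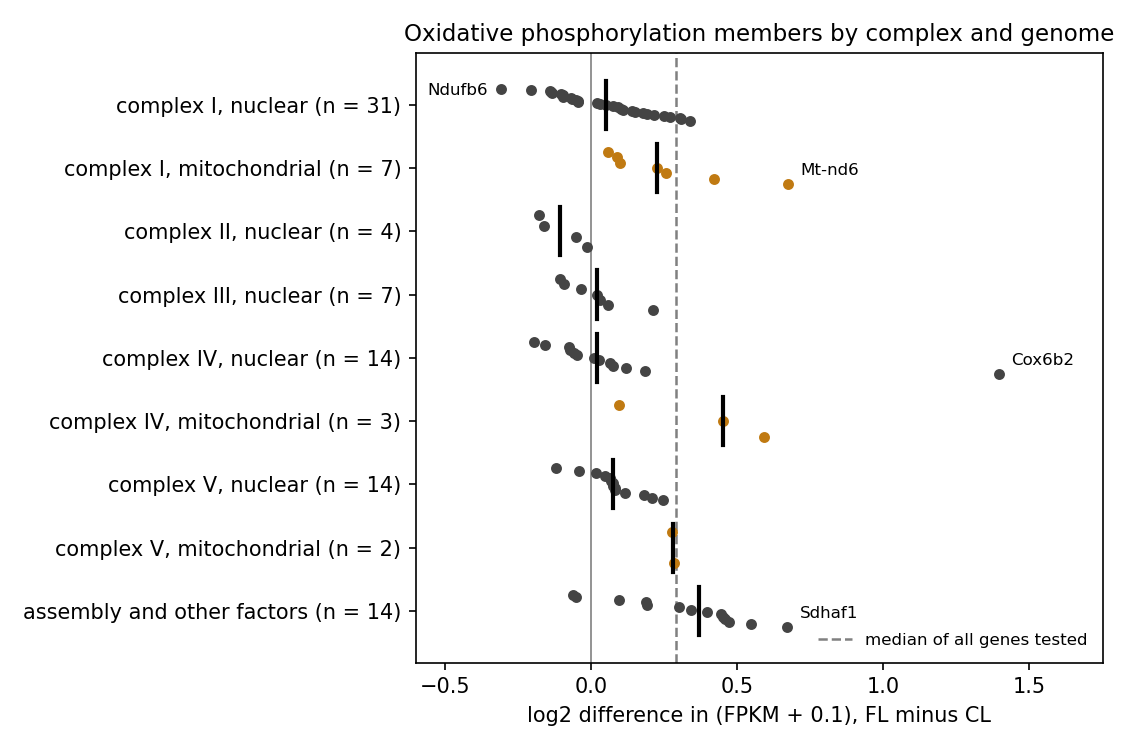
Log2 difference in FPKM + 0.1, FL minus CL (horizontal axis), of each member tested, by complex and genome, with nuclear members in grey, mitochondrial members in orange, a black bar at each median and a dashed line at the median of all genes (0.29). Ndufa1 and Cox6a2, listed at 0 in every CL rat, count in the medians but are not drawn, and the nuclear medians of complexes I, III, IV and V, all just above 0, turn negative with median scaling (-0.18, -0.21, -0.21 and -0.15).

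The mitochondrial genes of complex I encode its membrane arm, which pumps protons. Mt-nd1 (ENSRNOG00000030644) read 605.88, 968.82 and 1052.94 FPKM in CL rats, against 1090.89, 997.36 and 906.07 FPKM in FL rats, Mt-nd2 (ENSRNOG00000031033) 291.78, 456.22 and 516.68 FPKM in CL rats, against 514.82, 422.67 and 387.61 FPKM in FL rats. Mt-nd4 (ENSRNOG00000029707) read 421.93, 718.72 and 893.85 FPKM in CL rats, against 911.72, 648.21 and 550.91 FPKM in FL rats. In all of these CL5 was the lowest rat and FL2 was near or above the highest CL rat, and the groups overlapped. Mt-nd4l (ENSRNOG00000031053), whose reading frame overlaps that of Mt-nd4, read 84.65, 213.69 and 286.94 FPKM in CL rats, against 206.47, 174.71 and 161.83 FPKM in FL rats. CL7 was highest and CL5 lowest, so both extremes belonged to the CL group. Mt-nd3 (ENSRNOG00000033615), the lowest of the mitochondrial members, read 42.96, 71.98 and 68.91 FPKM in CL rats, against 94.93, 68.52 and 55.76 FPKM in FL rats. Mt-nd5 (ENSRNOG00000029971) read 155.18, 248.91 and 282.05 FPKM in CL rats, against 372.14, 273.21 and 257.5 FPKM in FL rats, and the groups of both genes overlapped. The log2 differences of these genes ran from 0.056 for Mt-nd4l to 0.42 for Mt-nd5, with standard errors of 0.25 to 0.40 and adjusted p-values of 0.277 to 0.934.

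Mt-nd6 (ENSRNOG00000029042) is the member that mitochondria transcribe from the opposite strand to all others. It read 163.28, 205.97 and 254.71 FPKM in CL rats, against 375.19, 326.62 and 283.01 FPKM in FL rats. Every FL rat was above every CL rat, FL2 most and FL12 least. Its log2 difference was 0.67 (standard error 0.21, adjusted p = 0.0573), outside the limit, and was 0.45 with median scaling. Its adjusted p was 0.0142 to 0.246 across the alternatives, and it passed with equal sums (0.0159), equal sums over nuclear genes (0.0142) and a limit of 1 FPKM on the mean (0.0493). How the strand of reads was treated for the gene table is not known here, so reads of Mt-nd6 and of its antisense strand cannot be told apart.

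Of the mitochondrial genes of complex IV, Mt-co1 (ENSRNOG00000034234) encodes the catalytic subunit that reduces oxygen and was the most abundant member. It read 9099.95, 12717.8 and 12091.1 FPKM in CL rats, against 11922.5, 12773 and 11224.2 FPKM in FL rats. CL5 was lowest, and CL6 and CL7 lay within the FL range. The log2 difference was 0.10 with a standard error of 0.64, which came down to 0.17 when limma's prior variance did not follow the mean. Mt-co2 (ENSRNOG00000030371), which takes electrons from cytochrome c, read 934.96, 1056.77 and 1098.6 FPKM in CL rats, against 1900.45, 1480.56 and 1320.97 FPKM in FL rats. All FL rats lay above all CL rats, FL2 highest, with a log2 difference of 0.59 (standard error 0.26, adjusted p = 0.15). Mt-cox3 (ENSRNOG00000030700), also of the core, read 553.23, 802.59 and 779.86 FPKM in CL rats, against 1240.07, 916.05 and 776.64 FPKM in FL rats. FL12 lay below CL6 and CL7, and the difference was 0.45 (standard error 0.27, adjusted p = 0.272). Mt-co2 passed the adjusted p only with equal sums (0.0359) and equal sums over nuclear genes (0.0302), in a range from 0.0302 to 0.47.

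Complex V has Mt-atp6 (ENSRNOG00000031979) and Mt-atp8 (ENSRNOG00000033299) from the mitochondrial genome, whose reading frames overlap and which sit in its membrane part. Mt-atp6 read 487.15, 672.8 and 726.72 FPKM in CL rats, against 843.72, 786 and 638.63 FPKM in FL rats. Mt-atp8 read 341.25, 686.05 and 756.53 FPKM in CL rats, against 740.02, 737.75 and 582.77 FPKM in FL rats. CL5 was the lowest rat for both, and FL12 lay below CL6 and CL7. The log2 differences were 0.28 (standard error 0.24, adjusted p = 0.436) for Mt-atp6 and 0.28 (standard error 0.32, adjusted p = 0.563) for Mt-atp8. Cytochrome b, the mitochondrial subunit of complex III, is spelled Mt-cytb in the table and so was outside the rule. It was read after the members were known, at 399.56, 541.37 and 506.19 FPKM in CL rats, against 755.98, 621.79 and 531.78 FPKM in FL rats. FL12 lay below CL6, so that the groups overlapped, and the log2 difference was 0.40 (standard error 0.22, adjusted p = 0.236). It passed with equal sums over nuclear genes alone (0.0473), in a range from 0.0473 to 0.696.

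**Figure D3:**
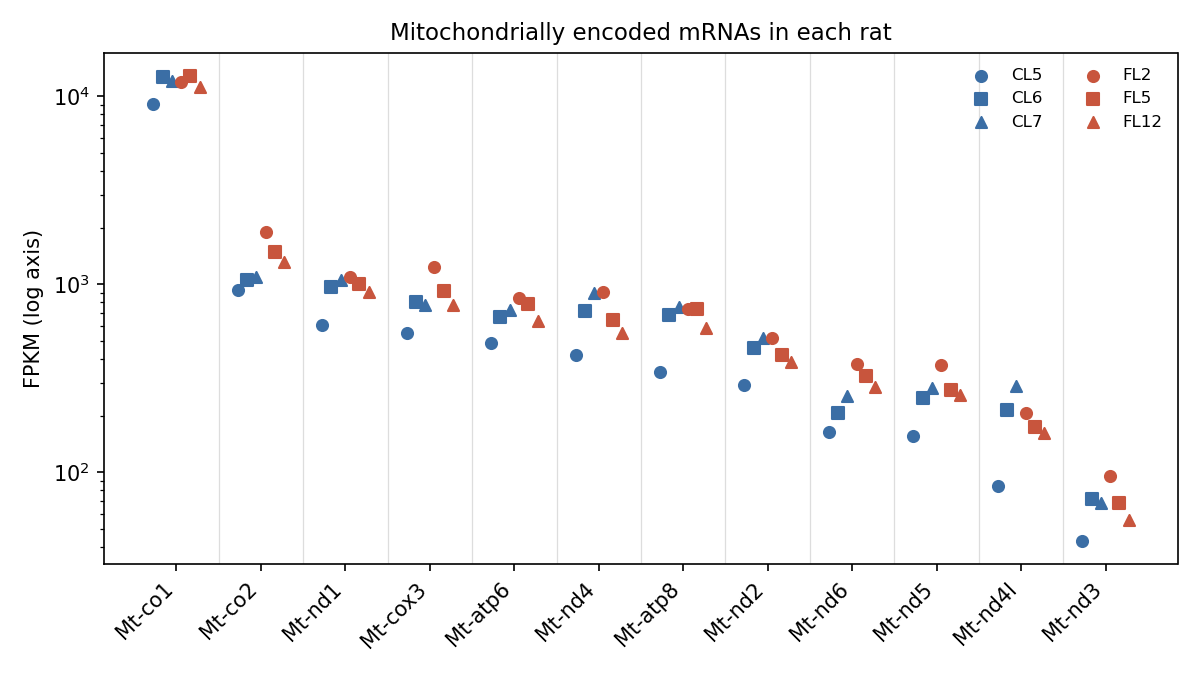
FPKM (log axis) of the 12 mitochondrially encoded mRNAs in each rat, ordered by their mean, with CL rats in blue and FL rats in red. CL5 is the lowest rat for every mRNA, and the positive differences of all 12 fall to 7 with median scaling.

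The nuclear core of complex I binds NADH and carries electrons along its iron-sulfur clusters. Ndufv1 (ENSRNOG00000018117), which holds the NADH site, read 25.35, 24.79 and 18.98 FPKM in CL rats, against 23.07, 28.54 and 21.2 FPKM in FL rats. Ndufs1 (ENSRNOG00000011849), the largest subunit of the peripheral arm, read 26.76, 26.1 and 23.27 FPKM in CL rats, against 26.3, 31.83 and 30.48 FPKM in FL rats. FL5 was the highest rat for both genes, CL7 was the lowest, and the groups overlapped. Ndufs7 (ENSRNOG00000024568), which carries the last cluster before ubiquinone, read 18.32, 21.54 and 18.49 FPKM in CL rats, against 16.99, 18.25 and 17.45 FPKM in FL rats. Every FL rat was below every CL rat, by a narrow margin between FL5 and CL5. Ndufs8 (ENSRNOG00000017446), also a carrier of iron-sulfur clusters, read 18.86, 18.05 and 17.05 FPKM in CL rats, against 21.17, 26.51 and 19.47 FPKM in FL rats. Here every FL rat was above every CL rat. The log2 differences were -0.14 (standard error 0.11, adjusted p = 0.388) for Ndufs7 and 0.30 (standard error 0.14, adjusted p = 0.155) for Ndufs8, neither past the limit. Ndufs3 (0.14) and Ndufv2 (0.049) had overlapping groups, and the 7 core genes spanned differences of -0.14 to 0.30 and adjusted p-values of 0.155 to 0.811. Ndufs7 was positive with equal sums (0.034), and Ndufs8 passed with equal sums over nuclear genes (0.0465, in a range from 0.0465 to 0.746).

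Accessory subunits of complex I surround the core and hold it together. The 24 of them had means over the rats from 0.105 to 62.9 FPKM, 13 positive and 11 negative differences, and a median of 0.025 that was -0.20 with median scaling, -0.15 with quantile normalization, 0.20 with equal sums and 0.23 with equal sums over nuclear genes. By limma 0 of them passed the adjusted p in either direction, and at an unadjusted p under 0.05 1 was higher (Ndufs4) and 0 lower. Ndufs4 (ENSRNOG00000011383), which is needed late in assembly, read 6.24, 6.63 and 5.43 FPKM in CL rats, against 7.89, 6.95 and 8.33 FPKM in FL rats. All FL rats lay above all CL rats, with a log2 difference of 0.34 (standard error 0.13, adjusted p = 0.113). Ndufb9 (ENSRNOG00000009364) was the most abundant of the accessory subunits and read 61.28, 68.04 and 72.33 FPKM in CL rats, against 68.57, 53.72 and 53.34 FPKM in FL rats. FL5 and FL12 lay below every CL rat and FL2 lay among them, and the difference was -0.21 (standard error 0.14, adjusted p = 0.328). Ndufb6 (ENSRNOG00000024539), in the membrane arm, had the lowest difference of all members and read 8.28, 5.68 and 4.79 FPKM in CL rats, against 4.12, 5.85 and 4.85 FPKM in FL rats. CL5 was far above the other rats, which overlapped, and the difference of -0.31 had a standard error of 0.22 (adjusted p = 0.347). Ndufa1 (ENSRNOG00000040005) was listed at 0 in CL5, CL6, CL7 and FL5, at 0.16 FPKM in FL2 and at 0.47 FPKM in FL12. It had an adjusted p of 0.203 and is given no fold change. LOC688963 (ENSRNOG00000002721), described in the table as similar to Ndufb4 and outside the rule, read 67.19, 84.77 and 61.57 FPKM in CL rats, against 56.6, 73.4 and 61.3 FPKM in FL rats. FL2 and FL12 lay below every CL rat and FL5 among them.

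Complex II also works in the tricarboxylic acid cycle and is encoded by the nucleus alone. Sdha (ENSRNOG00000013331), the flavoprotein that oxidises succinate, was its most abundant subunit and read 81.23, 79.98 and 71.04 FPKM in CL rats, against 72.19, 70.92 and 61.96 FPKM in FL rats. FL12 was lowest, and FL2 and FL5 lay beside CL7, below CL5 and CL6. Sdhb (ENSRNOG00000007967), the iron-sulfur subunit, read 66.93, 64.87 and 55.96 FPKM in CL rats, against 69.01, 65.08 and 52.33 FPKM in FL rats. Its groups overlapped fully, with FL2 at the top and FL12 at the bottom. The membrane anchors Sdhc (ENSRNOG00000003163) and Sdhd (ENSRNOG00000022980) hold the ubiquinone site. Sdhc read 48.88, 43.28 and 38.43 FPKM in CL rats, against 39.51, 45.38 and 40.77 FPKM in FL rats, and all FL values lay inside the CL range. Sdhd read 43.18, 43.37 and 37.3 FPKM in CL rats, against 34.78, 44.11 and 32.41 FPKM in FL rats, where FL2 and FL12 lay below the CL rats and FL5 above them. The log2 differences were -0.18 (standard error 0.12, adjusted p = 0.326) for Sdha and -0.16 (standard error 0.15, adjusted p = 0.449) for Sdhd, and -0.016 and -0.051 for Sdhb and Sdhc. All 4 were negative, as they were with median scaling and quantile normalization, whereas 3 of 4 were positive with equal sums and all 4 with equal sums over nuclear genes. By limma 0 passed the adjusted p and 0 an unadjusted p under 0.05.

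In complex III, Uqcrfs1 (ENSRNOG00000018281), the Rieske iron-sulfur protein, read 52.99, 54.6 and 44.91 FPKM in CL rats, against 44.83, 49.83 and 47.75 FPKM in FL rats. The FL rats lay between CL7 and CL5, apart from FL2, which was just below CL7. Uqcrc1 (ENSRNOG00000032134) and Uqcrc2 (ENSRNOG00000036742) are its core proteins on the matrix side. Uqcrc1 read 34.16, 33.53 and 26.92 FPKM in CL rats, against 26.21, 35.72 and 30.6 FPKM in FL rats, and Uqcrc2 read 53.29, 57.53 and 49.43 FPKM in CL rats, against 55.43, 56.17 and 51.85 FPKM in FL rats. FL5 was the highest FL rat for both, and each group overlapped the other. Uqcrh (ENSRNOG00000012550), the hinge protein at the cytochrome c side, was the most abundant and read 66.42, 63.45 and 54.57 FPKM in CL rats, against 57.11, 58.71 and 55.06 FPKM in FL rats. CL5 and CL6 lay above every FL rat and CL7 below, and the difference was -0.11 (standard error 0.12, adjusted p = 0.558). Over the 7 members of the complex, differences ran from -0.11 for Uqcrh to 0.21 for Uqcrb, 4 positive and 3 negative, against 0 positive with median scaling and 7 with equal sums. By limma 0 passed the adjusted p, and 0 passed an unadjusted p under 0.05. Uqcrb (ENSRNOG00000024967) stood apart by its level, at 1.49, 1.9 and 1.45 FPKM in CL rats, against 1.61, 2.52 and 1.61 FPKM in FL rats, while the other members of the complex had means of at least 14.9 FPKM. LOC686442 (ENSRNOG00000016952), described in the table as similar to a subunit of the same enzyme and outside the rule, read 47.87, 55.74 and 41.38 FPKM in CL rats, against 48.3, 54.01 and 51.78 FPKM in FL rats, with every FL rat inside the CL range. The authors kept uniquely mapped reads, so reads shared by near-identical copies cannot be assigned here.

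Nuclear subunits of complex IV surround its mitochondrial core, and several exist as isoforms of different tissues. Cox4i1 (ENSRNOG00000017817), the ubiquitous form of subunit IV that binds ATP as a regulator, read 135.53, 121.61 and 104.5 FPKM in CL rats, against 129.62, 132.67 and 127.87 FPKM in FL rats. All FL rats lay between CL6 and CL5. Cox5a (ENSRNOG00000018816) and Cox5b (ENSRNOG00000016660) face the matrix. Cox5a read 21.88, 22.79 and 16.94 FPKM in CL rats, against 17.98, 19.92 and 21.34 FPKM in FL rats, and Cox5b read 67.89, 76.25 and 58.42 FPKM in CL rats, against 70.52, 63.05 and 58.39 FPKM in FL rats. Neither separated the groups, and CL6 was highest in both. The 12 major subunits tested had means of 16.7 to 143 FPKM and differences of -0.20 to 0.19, with adjusted p-values of 0.309 to 0.959. Cox6c was the most abundant of them, at 149.93, 140.9 and 137.53 FPKM in CL rats, against 151.11, 142.17 and 138.31 FPKM in FL rats, with overlapping groups. Ndufa4 (ENSRNOG00000005512), named for complex I but a subunit of complex IV, read 88.46, 96.17 and 92.29 FPKM in CL rats, against 81.88, 88.36 and 78.05 FPKM in FL rats. Every FL rat lay below every CL rat, though FL5 and CL5 nearly met, with a log2 difference of -0.16 (standard error 0.12, adjusted p = 0.358). It was positive with equal sums (0.020).

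Among the isoform pairs, the form known from liver was the higher one in every rat. Cox6a1 read 40.32, 42.75 and 37.31 FPKM in CL rats, against 44.33, 42.17 and 30.51 FPKM in FL rats, whereas Cox6a2 (ENSRNOG00000019851), the form of heart and skeletal muscle, was listed at 0 in CL5, CL6, CL7 and FL12 and at 0.28 and 0.64 FPKM in FL2 and FL5. Its adjusted p was 0.155, in a range from 0.0304 to 0.294 over the alternatives. The value of 0.0304, without FL12, came from leaving out the FL rat listed at 0 and is no support for a difference. Cox7a2 (ENSRNOG00000042903) read 54.55, 44.28 and 38.06 FPKM in CL rats, against 39.31, 39.72 and 39.21 FPKM in FL rats. CL5 and CL6 were above every FL rat and CL7 below, with a difference of -0.20 (standard error 0.14, adjusted p = 0.364). LOC100910772, described as similar to the muscle form Cox7a1 and outside the rule, reached 0.04 FPKM at most. Cox8a (ENSRNOG00000021177) read 71.42, 80.73 and 66.33 FPKM in CL rats, against 83.77, 84.88 and 79.14 FPKM in FL rats, with FL12 below CL6. Cox8b, its muscle counterpart, was listed at 0 apart from 0.09 FPKM in FL5 and 0.42 FPKM in FL12. Cox4i2, a lung and smooth muscle form of Cox4i1, reached 0.13 FPKM at most, in CL7. Ndufa4l2, the counterpart of Ndufa4, reached 0.1 FPKM at most, in FL5. Cox4i2, Cox8b and Ndufa4l2 were below the limit for a test. Of the 5 markers of striated muscle read beside these forms, 1 was tested (Tnnt3, -0.0062), Myh7 and Mb were listed at 0 in every rat, and all of them summed to 0.300, 0.310 and 0.280 FPKM in the CL rats and 0.15, 0.1 and 0.240 FPKM in the FL rats.

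Cox6b1, which lies at the contact of the dimer, had its genes listed separately under ENSRNOG00000024309 and ENSRNOG00000034161. The former read 15.33, 19.38 and 13.98 FPKM in CL rats, against 19.17, 19.64 and 12.92 FPKM in FL rats. The latter read 65.04, 99.27 and 69.6 FPKM in CL rats, against 79.5, 95.76 and 67.49 FPKM in FL rats. CL6 and FL5 were high in both, and the groups overlapped. Cox6b2 (ENSRNOG00000038616), the form known from testis, rose in the FL group from 0.33, 0.29 and 0.34 FPKM in the CL rats to 0.49, 1.48 and 1.34 FPKM in the FL rats. The CL rats were nearly equal, FL5 and FL12 lay well above them, and FL2 lay only slightly above. Its log2 difference was 1.40 (standard error 0.39, adjusted p = 0.0443), or 0.64 with a pseudocount of 1. Across the alternatives its adjusted p was 0.00467 to 0.171. The call was lost with a pseudocount of 1 (0.0564), no filter (0.0735), limma without trend (0.0598), median scaling (0.078) and quantile normalization (0.171). It was also lost without CL5 (0.103), CL6 (0.111), CL7 (0.119), FL5 (0.141) or FL12 (0.128). Cox6b2 remained far below Cox6b1 in every rat, and with a mean under 1 FPKM it was not tested at that filter.

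The F1 head of complex V makes ATP. Atp5b (ENSRNOG00000002840), its catalytic beta subunit, was the most abundant nuclear member and read 333.55, 324.39 and 242.83 FPKM in CL rats, against 364.85, 359.68 and 333.69 FPKM in FL rats. FL12 lay just above CL5, so that every FL rat was above every CL rat, and CL7 was far lower than the rest. Its difference was 0.25 (standard error 0.18, adjusted p = 0.361). Atp5a1 (ENSRNOG00000017032), the alpha subunit, read 137.15, 133.33 and 109.96 FPKM in CL rats, against 126.23, 141.7 and 132.88 FPKM in FL rats. Atp5c1 (ENSRNOG00000019223), the gamma subunit that turns inside the head, read 7.88, 7.59 and 7.26 FPKM in CL rats, against 7.28, 8.72 and 8.1 FPKM in FL rats, a fraction of the level of the alpha and beta subunits. Both overlapped between the groups. The 5 F1 genes had differences of 0.018 to 0.25, all positive, of which 1 stayed positive with median scaling and 3 with quantile normalization.

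The membrane part and stalk of complex V had 9 nuclear genes tested, with means of 11.4 to 88.2 FPKM and differences of -0.12 to 0.21. Atp5g1, Atp5g2 and Atp5g3 encode the same mature c subunit, the proton-carrying ring of the rotor. Atp5g1 (ENSRNOG00000007235) read 46.68, 42.81 and 30.1 FPKM in CL rats, against 52.08, 36.26 and 37.13 FPKM in FL rats. Atp5g2 (ENSRNOG00000015320) read 32.12, 35.26 and 28.57 FPKM in CL rats, against 35.41, 39.38 and 35.84 FPKM in FL rats. Atp5g3 (ENSRNOG00000001596) read 54.12, 47.99 and 37.84 FPKM in CL rats, against 42.71, 46.36 and 45.32 FPKM in FL rats. Atp5g2 was the gene in which every FL rat lay above every CL rat, FL2 by little over CL6, with a difference of 0.21 (standard error 0.12, adjusted p = 0.247), and it was -0.016 with median scaling. The groups overlapped for Atp5g1 (0.074) and Atp5g3 (-0.044). Both genes listed as Atp5f1, a subunit of the stalk, were near 0, at most 0.12 FPKM in any rat, and were not tested. Only uniquely mapped reads were kept, and whether reads shared by these genes were lost was not tested. Over all 14 nuclear members tested in the complex, 12 differences were positive and 2 negative, against 1 positive with median scaling and 6 with quantile normalization. By limma 0 passed the adjusted p, and 0 an unadjusted p under 0.05.

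Assembly and other factors are not part of the finished complexes, and their levels were lower, with means of 0.698 to 30.1 FPKM over 14 genes. Of these 12 had positive and 2 negative differences, with 9 positive under median scaling and 6 under quantile normalization. Every FL rat lay above every CL rat in 5 of 14, 35.7% as in all genes (35.7%), and their median of 0.37 stood beside 0.29 for all genes. Sdhaf1 (ENSRNOG00000047045), which helps to insert the iron-sulfur clusters of Sdhb, rose in the FL group. It read 6.29, 8.05 and 5.8 FPKM in CL rats, against 10.82, 9.81 and 11.34 FPKM in FL rats. The lowest FL rat, FL5, was above the highest CL rat, CL6. The log2 difference was 0.67 (standard error 0.15, adjusted p = 0.021), with a 95% confidence interval of 0.33 to 1.01. Across the alternatives its adjusted p was 0.00599 to 0.096. The call was lost with median scaling (0.0707) and quantile normalization (0.096), and without CL5 (0.0684), CL7 (0.0808), FL5 (0.052) or FL12 (0.0628).

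Other factors for complex II did not pass. Sdhaf2 (ENSRNOG00000020646), which attaches the flavin to Sdha, read 13.62, 13.21 and 13.18 FPKM in CL rats, against 15.49, 14.82 and 15.37 FPKM in FL rats. The values within each group were tight and every FL rat was above every CL rat, with a difference of 0.19 (standard error 0.10, adjusted p = 0.204). Sdhaf3 and Sdhaf4 had differences of -0.052 and 0.30. Of the 7 complex I assembly factors, Ndufaf3 (ENSRNOG00000020068) read 3.86, 4.55 and 4.9 FPKM in CL rats, against 5.08, 6.04 and 7.27 FPKM in FL rats. FL2 lay just above CL7, so the groups did not overlap, and the difference was 0.45 (standard error 0.17, adjusted p = 0.0987), past the limit without FL2 (0.0441) in a range from 0.0413 to 0.549. The other complex I factors ran from -0.062 for Ndufaf1 to 0.55 for Ndufaf2, with overlapping groups. Cox7a2l (ENSRNOG00000004526), which joins complexes III and IV into a supercomplex, read 28.25, 23.73 and 24.45 FPKM in CL rats, against 37.21, 29.28 and 37.98 FPKM in FL rats. FL5 exceeded CL5 by little and FL2 and FL12 by more, and the difference was 0.44 (standard error 0.14, adjusted p = 0.0609). Atp5sl (ENSRNOG00000020596) read 6.25, 6.2 and 4.96 FPKM in CL rats, against 7.72, 7.91 and 7.29 FPKM in FL rats. Its groups did not overlap, and the difference was 0.40 (standard error 0.13, adjusted p = 0.0733). Cox7a2l passed with equal sums (0.0227) and equal sums over nuclear genes (0.0172), in a range from 0.0172 to 0.363, and Atp5sl with the same settings (0.0281 and 0.0221, range 0.0221 to 0.576).

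Genes that feed the respiratory chain were read from lists. The share of all genes that passed as higher, against which the counts of a list stand, was 8.75, 5.23, 26.5 and 29.6% with median scaling, quantile normalization, equal sums and equal sums over nuclear genes. It was 8.76, 9.15, 6.27, 21.5, 6.81 and 9.58% without CL5, CL6, CL7, FL2, FL5 and FL12. The share that passed as lower was 3.59, 3.61, 1.28 and 1.28% under those scalings and 1.06, 0.810, 0.836, 2.28, 1.22 and 1.30% without those rats. Of 17 genes for mobile carriers and electron entry, 1 rose, Gpd2 of the glycerol phosphate shuttle, and 0 fell by limma, with 2 higher and 1 lower at an unadjusted p under 0.05. The share that rose was 5.88%, where 16.9% of all genes rose. The median of 0.10 became -0.12, -0.15, 0.28 and 0.30 with median scaling, quantile normalization, equal sums and equal sums over nuclear genes. Gpd2 read 1.93, 2.48 and 1.64 FPKM in CL rats, against 3.24, 3.25 and 4.05 FPKM in FL rats, with no overlap and a log2 difference of 0.78 (standard error 0.19, adjusted p = 0.0291). It was lost with median scaling (0.0687) and quantile normalization (0.192), and without CL5 (0.0824), CL7 (0.104), FL12 (0.0854) or FL5 (0.0701), in a range from 0.0113 to 0.192. Suox, sulfite oxidase, read 38.92, 43.36 and 39.49 FPKM in CL rats, against 34.31, 32.17 and 23.15 FPKM in FL rats. Every FL rat was below every CL rat, with a log2 difference of -0.46 (standard error 0.16, adjusted p = 0.0834) and a range from 0.0451 to 0.208. It passed as lower with median scaling (0.0451), where Gpd2 did not pass, and without FL2 (0.0453). Higher in this list were 0, 0, 2 and 2 genes under the scalings in the order given, and 0, 1, 0, 1, 0 and 0 without CL5, CL6, CL7, FL2, FL5 and FL12. Cyc1 (cytochrome c1 of complex III) read 19.53, 21.31 and 19.55 FPKM in CL rats, against 21.09, 22.66 and 24.84 FPKM in FL rats, and Cycs (cytochrome c) 35.17, 33.99 and 32.21 FPKM in CL rats, against 31.96, 36.15 and 41.13 FPKM in FL rats. The groups overlapped for both, with adjusted p-values of 0.277 and 0.591. In the tricarboxylic acid cycle Idh2 and Idh3a rose, 2 of 17 genes, and 0 fell by limma, with 6 higher and 0 lower at an unadjusted p under 0.05. These are 11.8% beside 16.9% of all genes at the adjusted p, and 35.3% beside 31.5% at the unadjusted p. The number that rose became 0, 0, 6 and 7 under the scalings, and 1, 1, 0, 4, 0 and 1 without CL5, CL6, CL7, FL2, FL5 and FL12. Idh2 read 20.55, 24.33 and 23.06 FPKM in CL rats, against 35.96, 44.62 and 30.72 FPKM in FL rats. Idh3a read 4.08, 3.32 and 3.13 FPKM in CL rats, against 4.82, 5.35 and 7.35 FPKM in FL rats. Every FL rat exceeded every CL rat for both, and their log2 differences were 0.70 (standard error 0.15, adjusted p = 0.0209) and 0.70 (standard error 0.19, adjusted p = 0.0389). The call for Idh2 was lost with limma without trend (0.0504), median scaling (0.0954) and quantile normalization (0.0612), and without CL5 (0.0698), CL7 (0.0685) or FL5 (0.0605), in a range from 0.00736 to 0.0954. That for Idh3a was lost with limma without trend (0.0683), median scaling (0.108), no filter (0.0563) and quantile normalization (0.196), and without CL5 (0.0558), CL6 (0.105), CL7 (0.133), FL12 (0.0918) or FL5 (0.0866), in a range from 0.0195 to 0.196. Cs, citrate synthase, read 17.45, 14.08 and 12.89 FPKM in CL rats, against 18.95, 19.97 and 20.99 FPKM in FL rats with no overlap, at an adjusted p of 0.0578 (range 0.0226 to 0.292, 0.0383 without CL5). The median of the list was 0.23, or 0.0054, 0.014, 0.40 and 0.42 under the scalings.

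Assembly factors outside the prefixes numbered 31, with 1 that rose (Coa4), 0 that fell by limma, 5 higher and 1 lower at an unadjusted p under 0.05, and a median of 0.066 (-0.15, -0.25, 0.24 and 0.26 under the scalings). The share that rose was 3.23%, against 16.9% of all genes. Coa4, a factor for complex IV, read 1.8, 2.37 and 1.6 FPKM in CL rats, against 3.73, 3.19 and 3.41 FPKM in FL rats, with a log2 difference of 0.82 (standard error 0.18, adjusted p = 0.0204). The call for Coa4, with no overlap between the groups, was lost with median scaling (0.0585) and quantile normalization (0.178), and without CL5 (0.0661), CL7 (0.0789), FL12 (0.0539) or FL5 (0.0539), in a range from 0.00657 to 0.178. The balance of the list turned with the scaling. Cox16 (0.0164), Ttc19 (0.0347) and Tmem70 (0.0488) passed as lower with median scaling, and Cox16 (0.0316), Ttc19 (0.0321) and Sco1 (0.0346) with quantile normalization, settings in which no gene of the list rose. These are 3 of 31 genes (9.68%) in each, where 3.59% and 3.61% of all genes passed as lower. Without further scaling, every FL rat lay below every CL rat for Cox16 (-0.37, adjusted p = 0.0613, range 0.0164 to 0.409), Ttc19 (-0.24, adjusted p = 0.182, range 0.0321 to 0.847), Tmem70 (-0.27, adjusted p = 0.16, range 0.0488 to 0.72) and Sco1 (-0.34, adjusted p = 0.218, range 0.0346 to 0.629). These are 4 of 31 genes (12.9%, against 4.78% of all genes). Every FL rat lay above every CL rat in 5 of the 31 (16.1%, against 35.7% of all genes). With equal sums 5 genes passed as higher, and the number was 0, 1, 0, 3, 0 and 0 without CL5, CL6, CL7, FL2, FL5 and FL12. For maintenance and transcription of mitochondrial DNA, 0 of 22 genes passed by limma in either direction, with 0 higher and 1 lower (Polg2) at an unadjusted p under 0.05, and a median of 0.10 (-0.12, -0.19, 0.28 and 0.30 under the scalings). Of all genes 16.9% and 1.94% passed the adjusted p as higher and lower, and 31.5% and 4.04% the unadjusted p. Polg2, an accessory subunit of the mitochondrial DNA polymerase, read 2.94, 3.29 and 3.33 FPKM in CL rats, against 1.76, 1.52 and 2.91 FPKM in FL rats. Every FL rat was below every CL rat, with a log2 difference of -0.65 (standard error 0.24, adjusted p = 0.0921). It passed as lower with median scaling (0.0467), quantile normalization (0.0373) and without FL12 (0.0234), in a range from 0.0234 to 0.239. Tfam, which packs and transcribes mitochondrial DNA, read 8.87, 7.46 and 7.41 FPKM in CL rats, against 6.25, 7.55 and 9.34 FPKM in FL rats. The groups overlapped fully, with a difference of -0.050 (standard error 0.17, adjusted p = 0.849). Import channels, membrane proteins and chaperones of mitochondria had 1 of 21 genes that rose (Tomm22, 0.39, adjusted p = 0.0385) and 0 that fell by limma, with 8 higher and 0 lower at an unadjusted p under 0.05 and a median of 0.24 (0.018, 0.10, 0.42 and 0.44 under the scalings). The list had 4.76% that rose, against 16.9% of all genes, and 38.1% higher at the unadjusted p, against 31.5%. Its number that rose was 0, 0, 7 and 8 under the scalings, and 0, 0, 0, 2, 0 and 0 without CL5, CL6, CL7, FL2, FL5 and FL12. Tomm22 was lost with limma without trend (0.0806), median scaling (0.266) and quantile normalization (0.217), and without CL5 (0.0958), CL6 (0.0998), CL7 (0.116), FL12 (0.0956) or FL5 (0.117), in a range from 0.0196 to 0.266.

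Among regulators of mitochondrial biogenesis, Esrra, Sirt3 and Ppargc1b rose and Nrip1 fell. These are 3 and 1 of 15 genes (20% and 6.67%), where 16.9% of all genes rose and 1.94% fell. Of the 15 differences 13 were positive, a share of 86.7% beside 77.9% of all genes. Positive under the scalings were 8, 7, 14 and 14, beside 57.9, 45.5, 87.1 and 87.8% of all genes, and the median of the list was 0.24 (0.029, -0.014, 0.41 and 0.43 under the scalings). The number that rose was 1, 1, 6 and 6 under the scalings, and 2, 1, 2, 3, 1 and 2 without CL5, CL6, CL7, FL2, FL5 and FL12. Esrra, a nuclear receptor that binds promoters of respiratory chain genes, read 2.83, 2.95 and 3.11 FPKM in CL rats, against 4.8, 5.63 and 6.68 FPKM in FL rats. The groups were wide apart, with a log2 difference of 0.91 (standard error 0.15, adjusted p = 0.00912), and it passed in all 16 alternatives (0.00599 to 0.0406). Ppargc1b, a coactivator of Esrra, read 0.77, 0.92 and 1.61 FPKM in CL rats, against 1.72, 2.55 and 2.39 FPKM in FL rats. Sirt3, a mitochondrial deacetylase, read 7.11, 6.71 and 7.39 FPKM in CL rats, against 13.06, 11.37 and 8.51 FPKM in FL rats. FL2 exceeded CL7 by little for Ppargc1b, while for Sirt3 FL12 was the lowest FL rat. Their log2 differences were 0.99 (standard error 0.29, adjusted p = 0.0479) and 0.61 (standard error 0.17, adjusted p = 0.0404). Ppargc1b was lost with limma without trend (0.0709), median scaling (0.126), no filter (0.0788) and quantile normalization (0.264), and without CL5 (0.133), CL6 (0.126), FL12 (0.124) or FL5 (0.144), in a range from 0.0244 to 0.264. Sirt3 was lost with limma without trend (0.0776), median scaling (0.221), no filter (0.0557) and quantile normalization (0.274), and without CL5 (0.0978), CL6 (0.111), CL7 (0.103), FL2 (0.0681) or FL5 (0.122), in a range from 0.0104 to 0.274. Nrip1, a corepressor of nuclear receptors, read 7.9, 9.31 and 7.83 FPKM in CL rats, against 5.25, 5.24 and 5.76 FPKM in FL rats. Each FL value was below the lowest CL value, with a log2 difference of -0.61 (standard error 0.12, adjusted p = 0.0154). The call for Nrip1 was lost with equal sums (0.0577) and equal sums over nuclear genes (0.0631), and without CL6 (0.0577) or FL5 (0.0577), in a range from 0.00658 to 0.0631. Ppargc1a, a related coactivator, read 1.77, 1.04 and 1.1 FPKM in CL rats, against 2.73, 2.38 and 1.83 FPKM in FL rats. Nrf1, a transcription factor, read 1.66, 2.33 and 1.97 FPKM in CL rats, against 2.54, 3.13 and 3.28 FPKM in FL rats. Neither overlapped between the groups, and the adjusted p-values were 0.0595 (range 0.0235 to 0.472, 0.0416 without CL5) and 0.0669 (range 0.0283 to 0.545, 0.0421 without FL2). Gabpa, which binds ETS motifs, read 4.12, 4.05 and 3.88 FPKM in CL rats, against 4.73, 4.53 and 4.78 FPKM in FL rats, with no overlap and an adjusted p of 0.229.

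Both genes tested in the list of uncouplers and the ATP synthase inhibitor rose, with 2 of 2 past the 2-fold limit, where 16.9% of all genes rose and 9.29% passed both limits as higher. Atpif1, which stops complex V from running backwards, read 7.57, 9.84 and 11.3 FPKM in CL rats, against 15.41, 22.36 and 20.02 FPKM in FL rats. The lowest FL rat, FL2, was above every CL rat, with a log2 difference of 1.00385 (standard error 0.19, adjusted p = 0.0124). The difference was 0.78 with median scaling, short of 2-fold. The adjusted p limit was missed without FL5 (0.0504), in a range from 0.0065 to 0.0504. Ucp2, a carrier of the inner membrane that in liver is known mainly from macrophages, read 6.64, 9.18 and 9.14 FPKM in CL rats, against 22.85, 25.85 and 19.3 FPKM in FL rats. The lowest FL rat, FL12, was well above the CL rats. Its log2 difference was 1.44 (standard error 0.17, adjusted p = 0.00348), and it passed in all 16 alternatives (0.00122 to 0.0168). The median of the list was 1.22, or 0.998969, 1.03, 1.40 and 1.42 under the scalings. Among mitochondrial ribosomal proteins 2 of 72 genes rose, Mrps5 (0.42) and Mrpl32 (0.46), and 0 fell by limma, with 8 higher and 0 lower at an unadjusted p under 0.05 and a median of 0.19 (-0.036, -0.10, 0.36 and 0.39 under the scalings). This is 2.78%, against 16.9% of all genes, and the number became 0, 0, 6 and 14 under the scalings, and 0, 0, 0, 2, 0 and 1 without CL5, CL6, CL7, FL2, FL5 and FL12. Mrps5 was lost with limma without trend (0.0735), median scaling (0.246) and quantile normalization (0.446), and without CL5 (0.114), CL6 (0.0694), CL7 (0.145), FL12 (0.103), FL2 (0.0524) or FL5 (0.103), in a range from 0.0159 to 0.446. Mrpl32 was lost with limma without trend (0.0636), median scaling (0.187) and quantile normalization (0.14), and without CL5 (0.0807), CL6 (0.0666), CL7 (0.0895), FL12 (0.072) or FL5 (0.0531), in a range from 0.0101 to 0.187. Of the SLC25 carriers, which move metabolites across the inner membrane, 6 of 40 rose (among them Slc25a4, Slc25a24 and Slc25a36l1) and 0 fell by limma, with 12 higher and 1 lower at an unadjusted p under 0.05 and a median of 0.17 (-0.038, 0.012, 0.33 and 0.36 under the scalings). The shares were 15% beside 16.9% of all genes at the adjusted p, and 30% beside 31.5% at the unadjusted p. Numbers that rose were 3, 1, 9 and 11 under the scalings, and 4, 4, 2, 6, 3 and 5 without CL5, CL6, CL7, FL2, FL5 and FL12. Slc25a13 passed as lower with median scaling (0.0464) and without FL2 (0.0349), in a range from 0.0349 to 0.216, and Slc25a16 with median scaling (0.0322) and quantile normalization (0.0191), in a range from 0.0191 to 0.649. Slc25a4, the ADP/ATP exchanger of muscle, read 1.95, 1.86 and 1.7 FPKM in CL rats, against 3.47, 8.07 and 7.12 FPKM in FL rats, with a log2 difference of 1.62 (standard error 0.29, adjusted p = 0.011) that passed in all 16 alternatives (0.00114 to 0.0474). Slc25a24 read 0.57, 0.66 and 0.5 FPKM in CL rats, against 1.1, 1.92 and 1.71 FPKM in FL rats. Slc25a36l1 read 0.86, 0.37 and 0.48 FPKM in CL rats, against 0.89, 1.77 and 2.02 FPKM in FL rats. The groups did not overlap, FL2 being just above CL5 for Slc25a36l1, and their log2 differences were 1.28 (standard error 0.26, adjusted p = 0.0149) and 1.30 (standard error 0.38, adjusted p = 0.0475). Slc25a24 was lost with quantile normalization (0.0688), and without CL7 (0.0621) or FL5 (0.0583), in a range from 0.00673 to 0.0688. Slc25a36l1 was lost with limma without trend (0.0701), a limit of 1 FPKM on the mean (0.053), median scaling (0.092), no filter (0.0805), a pseudocount of 1 (0.0523) and quantile normalization (0.209), and without CL6 (0.13), CL7 (0.146), FL12 (0.137) or FL5 (0.142), in a range from 0.0179 to 0.209.

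**Figure D4:**
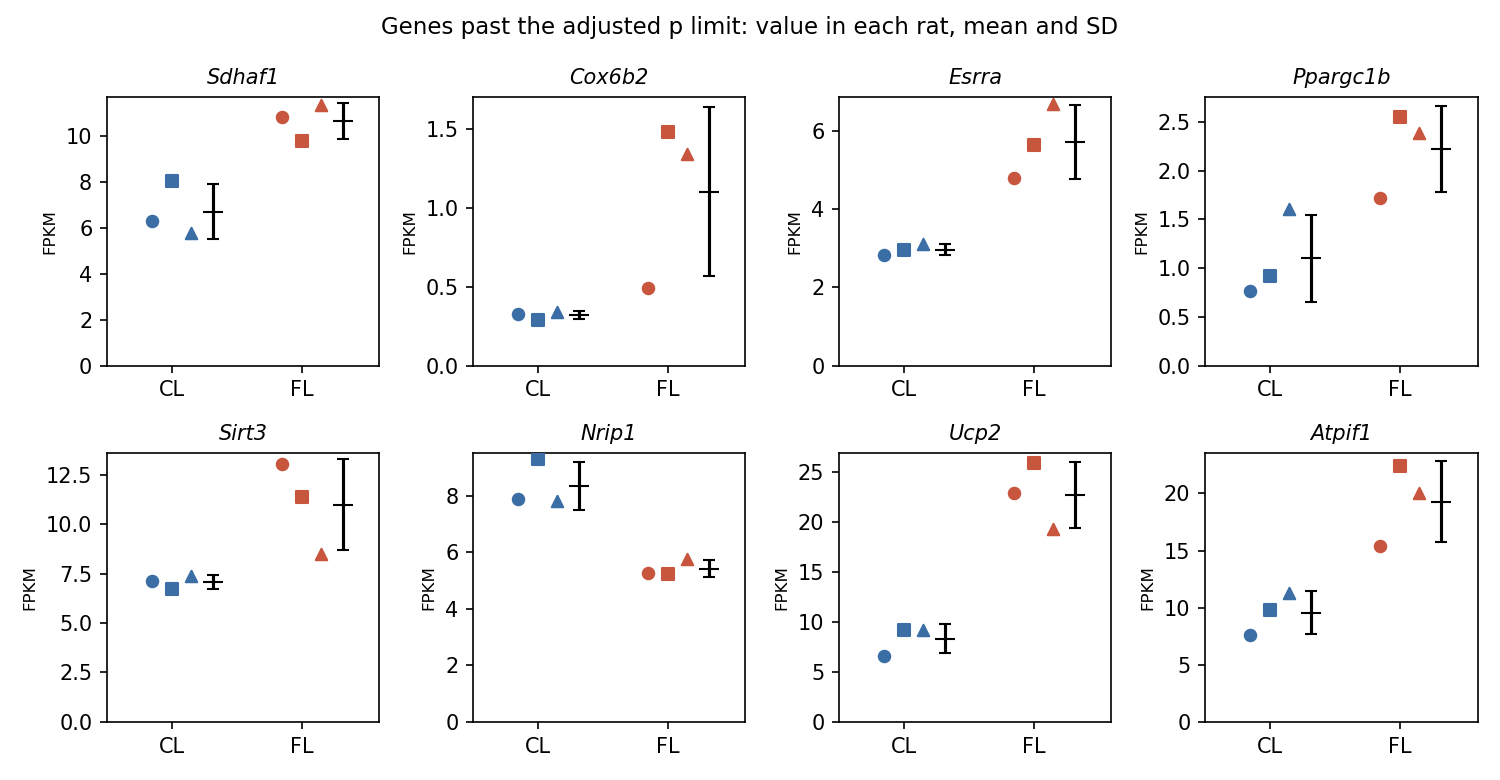
FPKM in each CL rat (blue) and FL rat (red) of Sdhaf1 and Cox6b2, the members past the adjusted p, and of Esrra, Ppargc1b, Sirt3, Nrip1, Ucp2 and Atpif1, which passed it in the lists, with the mean (dash) and SD (bar) of each group of 3 rats. The FL rats lie above the CL rats in all panels except that of Nrip1, where they lie below.

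Markers of the cell types of liver were read beside these values. The 7 hepatocyte markers, the most abundant of which was Alb, summed to 50308, 47877 and 48368 FPKM in the CL rats and 40839.8, 42539.9 and 41492 FPKM in the FL rats, and 0 passed the adjusted p by limma in either direction, with 1 higher (Apoa1) and 0 lower at an unadjusted p under 0.05. Every FL sum was below every CL sum, with Alb at 33392, 31431 and 31991.8 FPKM in CL rats, against 24148.6, 25052.1 and 25209.3 FPKM in FL rats. The sum of FPKM over all genes was also lower in every FL rat than in every CL rat, by little in FL2. Shares of that sum were not read for the markers. For Alb, Ttr and Hnf4a every FL rat was below every CL rat, and for Tf and Apoa1 every FL rat was above. These are 3 of 7 markers below (42.9%, against 4.78% of all genes) and 2 above (28.6%, against 35.7%). Of the 7 differences 4 were positive (2, 5, 4 and 4 under the scalings), with a median of 0.0027 (-0.22, 0.38, 0.18 and 0.21 under the scalings). Apoa1 (0.73, adjusted p = 0.1, range 0.0203 to 0.306) passed as higher with equal sums (0.035), equal sums over nuclear genes (0.0298), a robust prior (0.0424), limma without trend (0.0397) and a limit of 1 FPKM on the mean (0.0478), and without FL2 (0.0203). In no alternative did a hepatocyte marker pass the adjusted p as lower. At an unadjusted p under 0.05, 2 were lower by limma without trend (Alb and Ttr) beside 2 higher (Apoa1 and Tf), and 1 was lower with a robust prior (Ttr), a limit of 1 FPKM on the mean (Ttr) or median scaling (Hnf4a). Markers of stellate cells or myofibroblasts, 6 of 7 tested, summed to 66.3, 70.6 and 64.9 FPKM in the CL rats and 179, 486 and 450.1 FPKM in the FL rats. Of these 4 rose (among them Col1a1, Col3a1 and Des), 66.7% beside 16.9% of all genes, and Col3a1 was the most abundant. Their differences were positive in 5 and negative in 1 (-0.073), and Lrat was lower at an unadjusted p under 0.05 with quantile normalization. The 7 macrophage markers summed to 104, 105 and 106 FPKM in the CL rats and 229.8, 205 and 123 FPKM in the FL rats, where 3 rose (Marco, Cd68 and Csf1r), 42.9% beside the same 16.9%, and Clec4f was the most abundant. The differences of Clec4f (-0.017, adjusted p = 0.974, range 0.109 to 0.997) and Cd14 (-0.70, adjusted p = 0.237, range 0.126 to 0.531) were negative, with overlapping groups. All FL sums lay above all CL sums in both lists, and none of their markers was at 0 in every rat. Endothelial markers had 1 of 4 tested (25%) that rose (Stab2, lost without CL7 at an adjusted p of 0.0563, range 0.00595 to 0.0563), with Kdr the most abundant and sums of 59.0, 60.7 and 52.8 FPKM in the CL rats and 74.8, 61.5 and 69.0 FPKM in the FL rats. Of the 4 endothelial differences 3 were positive and 1 negative (-0.21). Kdr was lower at an unadjusted p under 0.05 with median scaling and without FL2. Under the scalings the numbers that rose were 4, 4, 5 and 5 for stellate cells, 3, 3, 5 and 5 for macrophages and 1, 1, 2 and 3 for endothelium. By limma 0 of 5 cholangiocyte, 5 lymphocyte and 4 erythroid markers passed, with 1, 0 and 0 higher and 0, 0 and 1 lower at an unadjusted p under 0.05. Without FL2 3 erythroid markers (Alas2, Hbb and Hba1) passed as lower, where 2.28% of all genes did. The cholangiocyte marker Cftr (1.46, adjusted p = 0.0745, range 0.0316 to 0.26) passed as higher with equal sums over nuclear genes (0.0454), and without FL2 (0.0316). Of the 5 cholangiocyte differences 3 were positive and 2 negative, the lowest at -0.82. Krt7 of that list was lower at an unadjusted p under 0.05 with quantile normalization and without FL12. The erythroid sums, led by Hbb, were 91.0, 161 and 114 FPKM in the CL rats and 129, 49.1 and 50.05 FPKM in the FL rats. Cholangiocyte sums, led by Epcam, were 5.38, 7.75 and 5.58 FPKM in the CL rats and 5.38, 8.06 and 11.3 FPKM in the FL rats, and lymphocyte sums, led by Cd8a, were 1.92, 1.40 and 1.90 FPKM in the CL rats and 2.79, 4.57 and 1.80 FPKM in the FL rats. Of the brown adipocyte markers Cidea and Prdm16, Cidea was tested and the more abundant, with sums of 2.74, 5.13 and 1.88 FPKM in the CL rats and 2.15, 3.28 and 2.75 FPKM in the FL rats. The part of stellate cells, macrophages and endothelium in the levels of Sdhaf1, Cox6b2, Ucp2, Atpif1 and the factors was not tested.

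Promoters of the nuclear members were searched for letters that regulators of respiratory chain genes are known to bind, because Esrra, a member of the ERR family, rose. RefSeq (GRCr8) gave a promoter, 250 bases before to 50 after the start, for 79 of 89 nuclear members, 77 of them distinct. On either strand, GCGCATGCG of NRF1 was found in 8 of the 77 (10.4%) and in 1.66% of all 27457 promoters. CCGGAAG of ETS factors such as GABPA was found in 24 (31.2%, all promoters 9.22%). AAGATGGCG of YY1 was found in 9 (11.7%, all promoters 1.93%), and TCAAGGTCA of ERR, the family of Esrra, in 2 (2.60%, all promoters 0.412%). The motifs of ETS factors and YY1 share the letters AAG and can overlap, and that of NRF1 overlaps its own reverse complement. A match is a description of these letters and was not tied to binding. A window is shown for each motif, with Sdhaf1 for ETS factors as the member with the lowest adjusted p, Uqcrc1 for NRF1, Ndufs4 for YY1, and Atp5g3 and Sdhd as the members that held the ERR motif. They lie at chr1:94704608-94704637, minus strand (Sdhaf1), chr8:118468174-118468203, plus strand (Uqcrc1), chr2:47794891-47794920, minus strand (Ndufs4), chr3:79220702-79220731, minus strand (Atp5g3) and chr8:59850592-59850616, minus strand (Sdhd), and capitals mark the motif, on the strand of the gene, which for Sdhaf1, Atp5g3 and Sdhd is its reverse complement.
Sdhaf1: tcggggcggtcCTTCCGGtagggtccgggc
Uqcrc1: actccaccctGCGCATGCGtagcgcggctt
Ndufs4: tgcccacaggAAGATGGCGgcggtctcaat
Atp5g3: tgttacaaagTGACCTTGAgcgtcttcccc
Sdhd: ggccgtagggTGACCTTGAgccctc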

How the data were processed

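Per the sample titles, 3 CL and 3 FL rats were compared, as grouped by name. Reads had been trimmed (FASTX-Toolkit) and aligned (TopHat2) by the authors, whose deposited values per gene are FPKM from uniquely mapped reads. Listed at 0 in every rat were 519 genes. The processing notes name GRCh38, a human build, whereas the gene identifiers are Ensembl's for the rat. The table has 8 columns of values, and 2 stayed unused, since their names belong to no sample of the series.

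Genes that averaged 0.1 FPKM or more were compared on log2(FPKM + 0.1) by limma, its prior variance following the mean, and Benjamini-Hochberg adjustment was made over 14864 genes, since FPKM are not counts. The pseudocount makes differences of low genes smaller. Calls took an adjusted p under 0.05, alone or with a 2-fold change. Medians over members are descriptions without a test. The genes named were all mitochondrial members, chosen core nuclear subunits, isoform pairs, the 5 largest differences in each direction, the most abundant member of each complex and members past the limits. In each list they were up to 3 genes past the adjusted p, with Ppargc1a, Nrf1, Gabpa, Tfam, Esrra, Cyc1, Cycs, Cs and Atpif1, and for markers the most abundant. Named after their values were seen were Mt-cytb, LOC688963, LOC686442, LOC100910772, Cox6c, Ndufs4, Ndufc2, Ndufv3, Uqcrb, Atp5f1, Atp5g1, Atp5g2, Atp5g3, the factors other than Sdhaf1 and Cox7a2l, the mitochondrial ribosomal RNAs, Suox, Cox16, Ttc19, Tmem70, Sco1, Polg2, Slc25a13, Slc25a16, Apoa1, Ttr, Tf, Hnf4a, Cd14, Cftr, Krt7, Lrat, Alas2 and Hba1. The transfer RNA AY172581.15 was also named after its values were seen. The members and lists were chosen with earlier results of these data known.

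As alternatives, the pseudocount was set to 1 or 0.01, the filter was dropped or set to 1 FPKM, and rats were scaled by their median over 9201 genes, by quantiles, or to equal sums of all or of nuclear genes. Further, limma was run without trend, with a robust prior and without each rat in turn. The fit was tested on simulated data with 14137 genes, where 175 of 190 changed genes were recovered at the adjusted p, with 15 false calls. The changed genes had been given 2-fold or 4-fold differences, of which 81 and 94 were recovered. Recovery of smaller differences, such as those of most members, was not tested. Software was R 4.3.3 (limma 3.58.1) and Python 3.11.15 (pandas 2.3.3, numpy 2.4.6, matplotlib 3.10.9).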

Additional observations from a re-analysis of the deposited data

How the results depend on the processing

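The number of members past the adjusted p and the 2-fold limit, 1 without further scaling, was 0 with a pseudocount of 1, no filter, a filter at 1 FPKM, median scaling, quantile normalization or limma without trend, and ran from 0 to 1 with single rats left out. The number past the adjusted p alone, 2, was 1 with a pseudocount of 1, no filter or limma without trend, 0 with median scaling or quantile normalization, 9 with equal sums and 12 with equal sums over nuclear genes, and ran from 0 to 3 with single rats left out. These counts are out of 96 members tested. The share of all genes that rose was 16.9% without further scaling, and 8.75, 5.23, 26.5 and 29.6% under those scalings in turn. The 12 with equal sums over nuclear genes were Sdhaf1, Cox6b2, Cox7a2l, Atp5sl, Ndufaf3, Ndufs4, Ndufs8, Ndufc2, Ndufv3, Sdhaf2, Mt-nd6 and Mt-co2. The nuclear median, 0.066, was -0.16 with median scaling, -0.10 with quantile normalization, 0.24 with equal sums and 0.27 with equal sums over nuclear genes. Leaving out single rats moved it between -0.017 and 0.12, and the mitochondrial median between -0.0016 and 0.41. Differences changed sign in 41 members with median scaling, 27 with quantile normalization, 26 with equal sums and 28 with equal sums over nuclear genes. Of 2296 comparisons of single genes under an alternative (144 genes, 16 alternatives), 2127 kept their side of the limit, 113 lost the call, 56 gained it and 0 reversed a call. The cause of these moves was not tested, and some settings also bring a smaller number of rats or genes. No paired analysis was possible because no pairing of the rats is given and the groups share only 1 number. The member counted without FL12 was Cox6a2, listed at 0 in FL12 and all CL rats, so that leaving out FL12 brought the call. Without read numbers, values near 0.1 FPKM, such as those of Cox6a2 and Ndufa1, have no counting error attached.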

Other observations

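The ribosomal RNAs of the mitochondrial chromosome were chosen after their values were seen. AY172581.24, listed as a mitochondrial ribosomal RNA, read 156.05, 155.75 and 175.27 FPKM in CL rats, against 399.87, 268.36 and 263.62 FPKM in FL rats. Every FL rat was far above every CL rat, with a log2 difference of 0.91 (standard error 0.20, adjusted p = 0.0187). The call was lost with median scaling (0.0904) and without CL5 (0.0629), CL6 (0.068) or CL7 (0.0572), in a range from 0.00412 to 0.0904. AY172581.9, the other ribosomal RNA, read 6.32, 9.83 and 20.21 FPKM in CL rats, against 23.22, 20.07 and 25.41 FPKM in FL rats, with a log2 difference of 1.07 (standard error 0.36, adjusted p = 0.0769). CL7 lay within the FL range. AY172581.9 passed the adjusted p without CL7 (0.0204), with equal sums (0.0305) and with equal sums over nuclear genes (0.0278), in a range from 0.0204 to 0.196. Ribosomal RNA had been removed before sequencing, so these values are what the removal left. Of the other genes of that chromosome outside the members, only the transfer RNA AY172581.15 passed. It was higher in every FL rat, with a log2 difference of 1.24 (standard error 0.34, adjusted p = 0.0394, range 0.00988 to 0.108).

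Cytosolic ribosomal proteins were read beside the mitochondrial ones. By limma 45 of 80 genes rose and 0 fell, where 16.9% of all genes rose. At an unadjusted p under 0.05, 53 were higher (66.25%) and 0 lower, against 31.5% and 4.04% of all genes. The median was 0.71 (0.50, 0.45, 0.88 and 0.90 with median scaling, quantile normalization, equal sums and equal sums over nuclear genes). The number that rose was 21, 28, 50 and 51 under the scalings in that order, where 8.75, 5.23, 26.5 and 29.6% of all genes rose, and 35, 24, 16, 42, 20 and 24 without CL5, CL6, CL7, FL2, FL5 and FL12, where the share of all genes was 8.76, 9.15, 6.27, 21.5, 6.81 and 9.58%. Past the 2-fold limit were 3 of 80, Rps19, Rpl35 and Rpl27a, beside 9.29% of all genes. Rps19 was outside the adjusted p limit with quantile normalization (0.106), and without CL5 (0.0691), CL7 (0.0818), FL12 (0.066) or FL5 (0.0529), in a range from 0.00867 to 0.106. Rpl35 read 27.94, 31.67 and 27.45 FPKM in CL rats, against 56.58, 60.03 and 68.5 FPKM in FL rats, with a log2 difference of 1.08 (standard error 0.12, adjusted p = 0.00308), and passed in all 16 alternatives (0.00166 to 0.0205).

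The level of a complex in protein, its activity and the copy number of mitochondrial DNA were not measured here, and mRNA levels do not stand for them. Groups of 3 rats limit what can be told apart, and CL5 was the lowest rat for every mitochondrial member. Reads shared by near-identical copies, as of Cox6b1, and by overlapping reading frames, Mt-atp6 with Mt-atp8 and Mt-nd4 with Mt-nd4l, were not assigned here.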
